A study of Homo sapiens with 414 samples.

Results

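The H9 cells described here are single human embryonic stem cells ranked by mitochondrial RNA share, the part of a cell's human RNA counts that comes from the 13 protein-coding genes of the mitochondrial genome. The 23 cells of highest share and the 23 of lowest share were compared, 46 of the 91 H9 cells and of the 183 single cells in the study. H9 is an established line; its cells were labelled undifferentiated, at passage 25 to 35, and were grown in E8 medium on Matrigel. Cells were caught on a microfluidic chip, full-length cDNA was made and amplified from each, and 51-base reads were taken with 24 libraries on a lane. The same cDNA of all 91 cells was also sequenced at 96 libraries on a lane. The other libraries of the 414 in the series are those of 92 cells of the H1 line (passage 20 to 30), each read at both depths, and bulk H1 RNA, which was not used here. Every H9 cell carries the same labels, none of which names a separate culture, so each group of cells counts as 1 sample. No test over samples exists and no p-value is given. Differences are described by their size and by how the single cells spread.

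The mitochondrial genome is a small circle present in many copies per cell. It is transcribed from both strands into long RNAs that are cut into ribosomal RNAs, transfer RNAs and mRNAs for subunits of the respiratory chain and ATP synthase. All other proteins of the organelle, including its polymerase, its ribosomal proteins and most respiratory subunits, are encoded in the nucleus and imported. Embryonic stem cells are known for strong use of glycolysis beside respiration. In single-cell work the mitochondrial share is widely read as a mark of cell quality, since broken cells can lose cytoplasmic RNA and keep their organelles.

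Several nuclear genes named MTRNR2L resemble MT-RNR2, the mitochondrial large ribosomal RNA, and their sequences are shown because these genes stand apart in the results. The count table has no row for MT-RNR2 itself. The first line is bases 822 to 851 of the MT-RNR2 transcript on chromosome M. That stretch was chosen because it occurs unchanged in the largest number of MTRNR2L transcripts, so it shows the likeness at its greatest. The lines after it give the best matching stretch of MTRNR2L transcripts on chromosomes 11, X, 7, 20, 17 and 16. Left out are MTRNR2L5 and MTRNR2L7, whose best stretches had 5 and 11 mismatches. Capitals mark bases equal to those of MT-RNR2.
MT-RNR2: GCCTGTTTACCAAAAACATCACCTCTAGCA
MTRNR2L8: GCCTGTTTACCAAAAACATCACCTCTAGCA
MTRNR2L10: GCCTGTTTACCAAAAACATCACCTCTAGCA
MTRNR2L6: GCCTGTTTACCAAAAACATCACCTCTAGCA
MTRNR2L3: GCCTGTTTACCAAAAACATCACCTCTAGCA
MTRNR2L1: tCCTGTTTAtCAAAAACATCACCTCTAGCA
MTRNR2L4: aCCTGTTTACCAAAAACATCACCTCTgGCt

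The longest exact run shared with MT-RNR2 was 88 bases in MTRNR2L8, 62 in MTRNR2L10, 60 in MTRNR2L1 and 55 in MTRNR2L6. Of the 1509 windows of 51 bases in MT-RNR2, the length of a read, 483 (32.01%) matched MTRNR2L8 with at most 2 mismatches, and 237 (15.7%) matched MTRNR2L1.

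The share ran from 0.539% to 16.8% over the 91 H9 cells, with a median of 7.39%. The low group held cells from 0.539% to 5.73% (median 4.88%), and the next cell above it was at 5.79%. The high group held cells from 9.21% to 16.8% (median 11.2%), and the next cell below it was at 9.04%. The groups were chosen by these values, which are given as a description. Neither edge of a group falls in a gap of the ranking. In the libraries of the same cDNA at 96 per lane the median share was 11.2% in the high group and 4.85% in the low group, close to the values at 24 per lane. Only 1 H9 cell, at 0.539%, lay below 1%, and none lay above 20%.

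**Figure D1:**
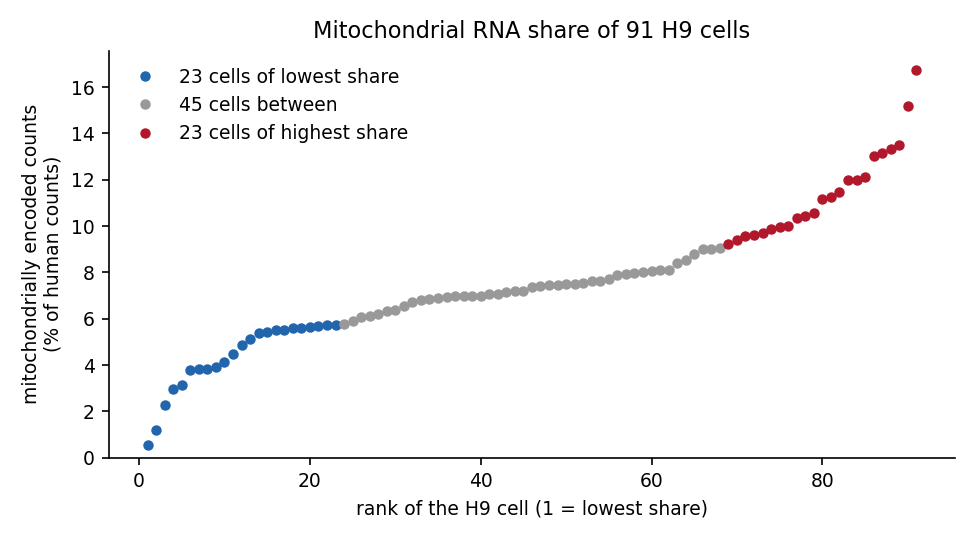
Mitochondrially encoded counts as a percentage of all human counts (y axis) in each of the 91 H9 cells, ordered by rank (x axis); colours mark the 23 lowest, 45 between and 23 highest cells. The ranking runs from 0.539% to 16.8%, with steps widest among the lowest and highest cells and no gap at the edges of the groups.

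Depth and quality measures overlapped between the groups. Cells of the high group had a median of 3262160 nuclear counts (1416250 to 6167610) and those of the low group 3923260 (1931390 to 5826760). A median of 10649 nuclear genes were read in the high group and 10626 in the low group. Spike-in sequences took a median of 4.93% of counts in the high group (2.88% to 8.06%) and 4.52% in the low group (2.51% to 9.78%). Over all 91 cells the share and the spike-in percentage were almost unrelated (Spearman rho -0.01, Pearson r 0.01, given as a description). Among the 45 cells between the groups the spike-in percentage fell with the share (rho -0.34, r -0.28). In the H1 line the cells at the ends of the ranking did stand apart: 4 H1 cells had shares below 1% or above 20%, and H1 values are given with and without these extreme cells, the value without them following in the same or the next sentence.

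Both groups had the marker RNAs of undifferentiated cells. The summed level of 8 such markers ran from 3619 to 5659 counts per 1000000 nuclear counts (CPM) in the high group (median 4469) and from 2912 to 5622 in the low group (median 4545). POU5F1, the core pluripotency transcription factor, was read in all 46 cells. It stood at 189 CPM in the summed high group and 172 in the low group, a log2 ratio of 0.13. NANOG stood at 254.05 and 218.64 CPM (log2 ratio 0.22) and SOX2 at 58.96 and 51.84 CPM (0.19). The endoderm markers SOX17, GATA4 and GATA6, the mesendoderm markers EOMES and GSC, the neural marker ZIC1 and the trophectoderm marker CDX2 had no count in any of the 46 cells.

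Of the 4 mesendoderm markers a different 1 was read in each group. MIXL1 was read in 1 high cell, at 10.5 CPM, and T in 2 low cells, at up to 0.604 CPM. FOXA2 alone of the 4 endoderm markers was read, up to 27.36 and 20.999 CPM. The sum of 3 neural markers reached 32.4 and 7.85 CPM and that of 3 trophectoderm markers 18.4 and 21.7, with medians of 0.00 in both groups.

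Of the marker lists of other cell types, the fibroblast list had the highest summed level. The summed CPM of 6 fibroblast markers had a median of 23.6 in high cells (0.398 to 110) and 6.67 in low cells (0.00 to 60.5), and 3 of the 6, COL3A1, LUM and DCN, had no count in either group. COL1A1, a fibrillar collagen chain, was read in 22 of 23 high cells and 11 of 23 low cells, at 8.79 and 0.40 CPM in the sums. Its level in the high group is under the 10 CPM needed for the comparison. The part of these RNAs in the results below was not tested.

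The mitochondrial and nuclear parts of the share were each set against spike-in counts, as a description. The groups were chosen by the share, so a gap between them in its parts is partly built in. Mitochondrially encoded counts per spike-in count had a median of 2.21 in high cells (1.199 to 3.719) and 1.00 in low cells (0.097 to 1.75). Nuclear counts per spike-in count had a median of 17.1 in high cells (9.90 to 30.6) and 20.2 in low cells (9.11 to 37.3). The mitochondrial medians thus lay further apart than the nuclear ones, whose ranges overlapped nearly in full, and the 45 cells between the groups had the highest nuclear median, 22.2. Over all 91 cells the share followed mitochondrial counts per spike-in count (rho 0.77, r 0.71) and hardly followed nuclear counts per spike-in count (rho -0.09, r -0.14). The share contains the mitochondrial counts, so its correlation with mitochondrial counts per spike-in count is partly built in. Among the 45 cells between the groups the share rose with nuclear counts per spike-in count (rho 0.32, r 0.31). Whether each cell received the same amount of spike-in RNA is not given in the sources used here.

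**Figure D2:**
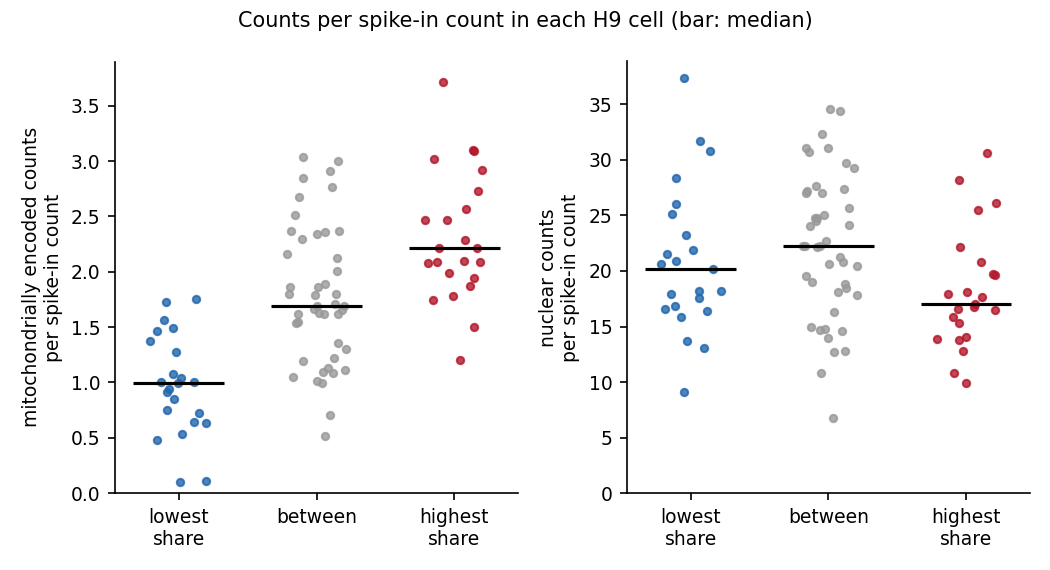
Mitochondrially encoded counts (left) and nuclear counts (right) per spike-in count in each H9 cell, by group of mitochondrial share; each point is a cell and each bar the group median. Medians are 1.00, 1.69 and 2.21 on the left and 20.2, 22.2 and 17.1 on the right, from lowest to highest share.

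All 13 mitochondrially encoded mRNAs were higher in the high group, which the choice of cells fixes as a whole but not gene by gene. MT-CO1, the catalytic core subunit of cytochrome c oxidase, had a median of 29948 counts per 1000000 human counts in high cells (20732 to 38281) and 10658 in low cells (633 to 17790). MT-CYB, the cytochrome b subunit of complex III, had medians of 10769 and 3956. MT-ND4, a membrane subunit of complex I, had medians of 11965 and 4715. The ratio of medians over the 13 genes ran from 1.91 for MT-ND3 to 2.97 for MT-ND6, which is the only one of them transcribed from the light strand of the circle.

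The make-up of the mitochondrial RNA differed little between the groups. MT-CO1 held 25.8% of all mitochondrially encoded counts in the high group and 22.8% in the low group. MT-CO2, another cytochrome c oxidase subunit, held 12.7% and 14.3%, and MT-ND2, of complex I, held 6.43% and 7.40%. The cells of one group varied more than the groups differed: the percentage of MT-CO1 ran from 19.9% to 34.1% in high cells and from 8.21% to 33.9% in low cells. The widest relative gap was in MT-ND3, the scarcest of the 13, at 0.142% and 0.207%.

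Among nuclear genes, 9199 reached 10 CPM in at least 1 group, with mitochondrially encoded rows and spike-ins left out of the totals. Of these, 670 (7.28%) were at least 2-fold higher in the high group and 498 (5.41%) at least 2-fold lower, 12.7% either way. The median log2 ratio over all 9199 genes was 0.03. Counts of that size also arise among cells the rule did not use. When the 45 cells between the groups were split into the 22 upper and 22 lower by share, a far smaller difference in share, 495 (5.44%) of 9097 genes were 2-fold higher and 316 (3.47%) lower, 8.92% either way. In H1 cells grouped in the same way, 934 (10.2%) of 9120 were 2-fold higher and 594 (6.51%) lower, 16.8% either way. Without the 4 H1 cells of extreme share these were 629 and 465 of 9105.

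The genes themselves recurred only in part. Of the 670 genes 2-fold higher in the high group, 409 (61.04%) were also higher in the upper cells between, against 54.4% of all compared genes, and 446 (66.6%) were higher in H1 cells of high share, against 52.3% of all. Without the extreme H1 cells 407 (60.7%) were higher, against 52.05% of all. Of the 498 lower genes, 235 (47.2%) were also lower between the groups and 50.8% in H1, against 45.6% and 47.7% of all compared genes; without the extreme H1 cells it was 53.2%, against 47.95%. The lower genes thus kept their direction in other cells little more often than any gene did. The cells between carry the same labels as the groups, and the H1 cells are of another line. Among the cells between, those of higher share also tended to have more nuclear genes read (rho 0.39) and more nuclear counts per spike-in count (rho 0.32).

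The MTRNR2L genes were the group of nuclear rows that followed the share most closely. Of 10 listed, 9 had a row and 8 were compared. All 8 were higher in the high group, against 4819 of all 9199 compared genes. At least 2-fold higher were 7 of them, against 7.28% of all compared genes. Their median log2 ratio was 1.49, against 0.03 over all compared genes. MTRNR2L8 ran from 5560 to 13421 CPM in high cells (median 7755) and from 381 to 4615 in low cells (median 3182). No cell of one group overlapped the other. Its summed level was 8556 CPM (95% exact Poisson interval 8536 to 8577) in the high group and 2903 in the low group, a log2 ratio of 1.56, and its rank correlation with the share over the 91 cells was 0.93. MTRNR2L2, at 9033 and 3245 CPM, MTRNR2L1, at 2282 and 802, and MTRNR2L10, at 1621 and 560, had log2 ratios of 1.48, 1.51 and 1.53. Cells of the groups did not overlap in MTRNR2L8, MTRNR2L2 and MTRNR2L10 and did in the other 5. In MTRNR2L1 the lowest high cell stood at 1562 CPM and the highest low cell at 1744. How many of all compared genes keep the groups apart was not counted, so the lack of overlap is a description only.

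Just under 2-fold was MTRNR2L5, at 16.6 and 8.36 CPM (log2 ratio 0.99). It matched no 51-base window of MT-RNR2. The 8 genes also had a median log2 ratio of 0.28 between the upper and lower cells of the middle, 1.60 in H1, and 0.95 in H1 without its cells of extreme share. MT-RNR2 has no row of its own, and 6 of the 8 genes matched at least 1 of its 51-base windows with at most 2 mismatches. Where such a window is equal in both, reads of the gene and of mitochondrial ribosomal RNA cannot be told apart. Windows with mismatches differ between the 2 sequences. How many reads of mitochondrial ribosomal RNA were counted in these rows was not tested. The likeness of MTRNR2L2 was not analysed here. The MTRNR2L rows made up a median of 20851 CPM in high cells and 8648 in low cells.

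**Figure D3:**
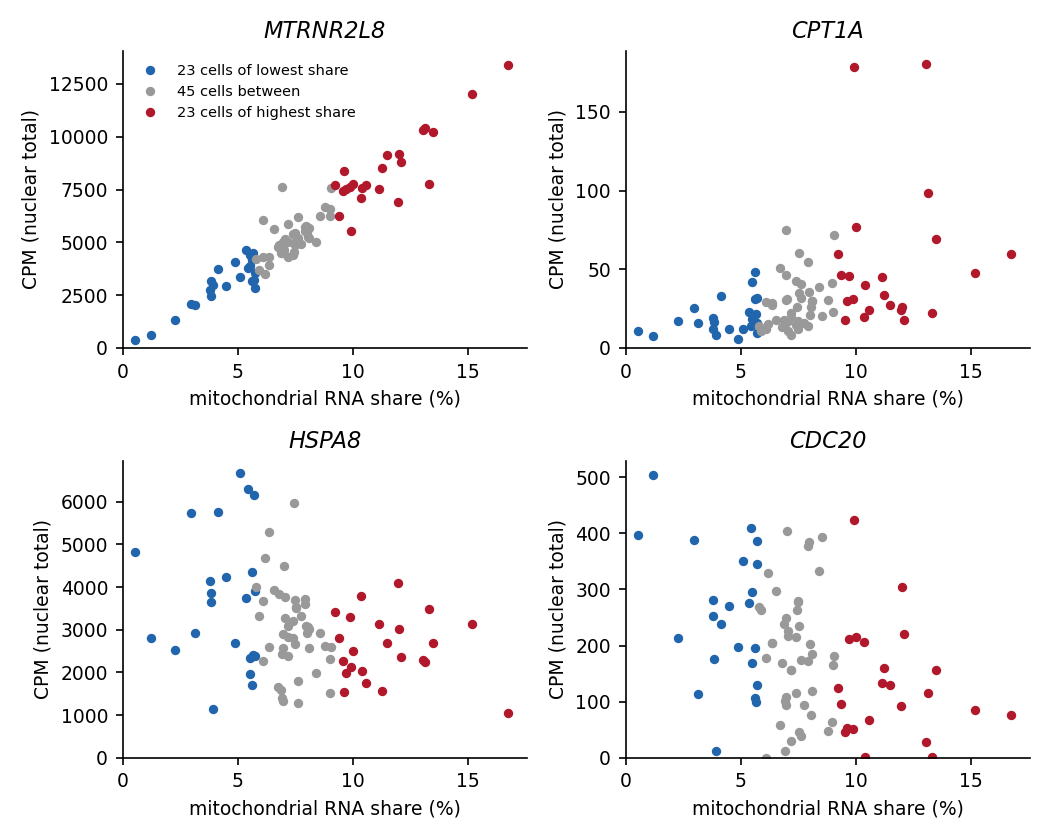
CPM of 4 nuclear rows (y axes) against the mitochondrial RNA share in percent (x axes) in each of the 91 H9 cells, coloured by group. MTRNR2L8 separates the groups without overlap, whereas CPT1A, HSPA8 and CDC20 overlap, with medians of 40.02, 2507 and 115 CPM in high cells and 16.63, 3748 and 253.5 in low cells.

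Nuclear genes for the respiratory chain did not follow the mitochondrially encoded ones. Over all compared genes, 47.6% were lower in the high group, 5.41% were at least 2-fold lower and 7.28% at least 2-fold higher. Of the 38 nuclear subunits of complex I, 20 were higher and 18 lower in the high group, none by 2-fold, with a median log2 ratio of 0.01. Their summed level had a median of 4543 CPM in high cells (3639 to 7050) and 4392 in low cells (3750 to 8187). Of the 25 nuclear subunits of complexes II to IV, 10 were higher and 15 lower (60%), with a median of -0.06. SDHC, a membrane anchor of succinate dehydrogenase, was the 1 member past 2-fold (4%, near the 5.41% over all genes). It stood at 11.2 CPM against 27.4, with cell medians of 2.10 and 5.09. Of 15 ATP synthase subunits, 4 were higher and 11 lower (73.3%, against 47.6% of all compared genes), with a median of -0.08. ATP5A1, the alpha subunit, stood at 1085 and 1350 CPM, a log2 ratio of -0.32. In H1 the medians were -0.17 for complex I, 0.02 for complexes II to IV and -0.20 for ATP synthase. Without the extreme cells they were -0.12, 0.03 and -0.11, against 0.03 over all compared genes.

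Genes for expressing the mitochondrial genome showed the same flat picture in H9. Of 75 mitochondrial ribosomal proteins, 32 were higher and 43 lower (57.3%, against 47.6% of all compared genes), with a median log2 ratio of -0.07. MRPS27, of the small mitochondrial subunit, was the 1 member past 2-fold (1.33%, against 5.41% of all compared genes). It ran from 5.64 to 278.7 CPM in high cells (median 80.6) and from 16.2 to 494 in low cells (median 187). Only 2 of 23 high cells lay above the median of the low cells, yet the ranges overlapped; the log2 ratio of the sums was -1.17, against -0.10 between the groups and -0.29 in H1, or -0.42 without the extreme cells. Of 20 genes for mitochondrial DNA upkeep and transcription, 10 were higher and 10 lower (median 0.03). POLRMT, the mitochondrial RNA polymerase, was higher at 11.5 CPM against 5.16 (log2 ratio 1.15), and lower by about as much in the upper cells between (-1.14).

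Of 18 genes for mitochondrial RNA processing and stability, 9 were higher and 9 lower (median 0.01). PTCD2, a mitochondrial RNA-binding protein, stood at 10.6 and 4.43 CPM, and FASTKD5, which takes part in processing mitochondrial mRNAs, at 48.9 and 87.6. The log2 ratio of PTCD2 was 0.18 between the groups and 0.27 in H1, or 0.38 without the extreme cells. That of FASTKD5 was 1.08 between the groups and -1.61 in H1, or -1.19 without the extreme cells. Of 25 import genes, 9 were higher and 16 lower (64%, against 47.6% of all compared genes), with a median of -0.10. TOMM34, a cytosolic cochaperone of import, was 2-fold lower at 41.9 CPM against 89.5, with no such gap in H1 (log2 ratio 0.08, or -0.15 without the extreme cells). Of 14 mitochondrial chaperones and proteases, 7 were higher and 7 lower (median 0.03). TMM factors or median-of-ratios size factors turned the sign of some H9 medians that lie this near 0. These were the medians of complex I, DNA upkeep and transcription, RNA processing, and chaperones. The lists were less flat in H1. There the medians were -0.16 for mitochondrial ribosomal proteins, -0.23 for DNA upkeep and transcription, -0.22 for RNA processing, -0.18 for import and -0.08 for chaperones. Without the extreme cells they were -0.06, -0.14, -0.12, -0.14 and 0.04, against 0.03 over all compared genes.

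The lists furthest below the median of all genes were hypoxia targets, organelle turnover and the G2/M genes. Of all compared genes 47.6% were lower in the high group and 5.41% were 2-fold lower. Of 10 hypoxia targets, 8 were lower in the high group, with a median log2 ratio of -0.53. PDK1, which restrains entry of pyruvate into the citrate cycle, had cell medians of 63.6 CPM in high cells and 99.7 in low cells. DDIT4, an inhibitor of mTORC1, stood at 7.74 and 16.0 in the sums. It was read in only 7 high cells and 12 low cells, so its sums rest on few cells. ERO1L, an oxidase of the endoplasmic reticulum, went the other way at 14.1 against 5.98. The list did not lie low in other cells, with medians of 0.09 between the groups and 0.12 in H1, or 0.15 without the extreme cells. The summed list ran from 231 to 542 CPM in high cells (median 331) and from 187 to 1115 in low cells (median 412).

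Of 13 genes for mitochondrial fission, fusion and mitophagy, 11 were lower (84.6%, against 47.6% of all compared genes), 1 of them by 2-fold (7.69%, against 5.41%), with a median of -0.37. SQSTM1, an autophagy receptor, ran from 0.40 to 326 CPM in high cells (median 53.8) and from 33.5 to 344 in low cells (median 89.5). MFF, the receptor that brings the fission enzyme to the outer membrane, had cell medians of 78.3 and 131. PARK2, the ubiquitin ligase parkin, was higher at 11.9 CPM against 6.96. In H1 the list had a median of 0.10, or 0.14 without the extreme cells. Of 17 genes of the citrate cycle and pyruvate dehydrogenase, 12 were lower, with a median of -0.21. The median was also low between the groups (-0.11) and in H1 (-0.27, or -0.24 without the extreme cells). Most other mitochondrial lists also had negative medians in H1. CS, citrate synthase, had cell medians of 110 CPM in high cells and 144 in low cells, and a log2 ratio of -0.62 that was -0.74 in H1, or -0.82 without the extreme cells. FH, fumarate hydratase, stood at 62.8 and 99.5 CPM in the sums, with log2 ratios of -0.66 in H9 and -1.01 in H1, or -0.96 without the extreme cells.

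Cell division genes of G2 and M phase were lower in the high group in 31 of 39 cases (79.5%, against 47.6% of all compared genes), with a median log2 ratio of -0.30. Of these 3 were 2-fold lower (7.69%), near the 5.41% over all genes. CDC20, an activator of the anaphase-promoting complex, ran from 0.94 to 423 CPM in high cells (median 115) and from 11.4 to 504 in low cells (median 253.5). Only 2 high cells lay above the low median. The ratio of sums was -1.06 in H9, 0.04 between the groups and -0.40 in H1, or -0.26 without the extreme cells. KIF20A, a kinesin of the late spindle, stood at 47.7 and 122 CPM in the sums, but its cell medians were close, at 41.4 and 51.9. The spindle checkpoint kinases TTK and BUB1B had cell medians of 92.1 and 136 CPM in high cells and of 195 and 221 in low cells.

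The G2/M level did not run evenly with the share. The summed list had a median of 7062 CPM in high cells (4211 to 10660), 7574 in low cells (5281 to 13502) and 8621 in the 45 cells between (4500 to 16595), the highest of the 3. The list's median log2 ratio was 0.12 between the upper and lower cells of the middle and -0.31 in H1, or -0.22 without the extreme H1 cells. G1/S and S phase genes split 12 higher to 17 lower (58.6%, against 47.6% of all compared genes), with a median of -0.04. The replication-dependent histone HIST1H4C had a median of 643 CPM in high cells (67.6 to 1630) and 139 in low cells (19.4 to 2624). Most high cells, 21 of 23, lay above the low median, but the highest cell of both groups was in the low group, and the ratio of sums was 0.87, with 0.14 in H1, or 0.19 without the extreme cells.

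Of 21 cytosolic chaperones, 17 were lower in the high group (80.95%, against 47.6% of all compared genes), 2 by 2-fold (9.52%, against 5.41%), with a median log2 ratio of -0.22. HSPA8, the constitutive HSP70, ran from 1058 to 4102 CPM in high cells (median 2507) and from 1140 to 6679 in low cells (median 3748). Only 2 high cells lay above the low median, and several low cells exceeded every high cell. The ratio of sums was -0.64 in H9, but -0.08 between the groups and -0.08 in H1, or 0.00 without the extreme cells. BAG3, an HSP70 cochaperone, and DNAJB1, a heat-inducible one, were the 2 past 2-fold. BAG3, at 3.08 against 19.2 CPM, had a median of 0.00 in both groups and so rests on few cells. The list's median was -0.08 between the groups and -0.18 in H1, or -0.07 without the extreme cells.

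Several other housekeeping and stress lists stayed near the median of all genes. Cytosolic ribosomal proteins were lower in 53 of 79 cases (67.1%, against 47.6% of all compared genes) but by little (median -0.04). Translation factors had a median of -0.11, glycolysis -0.12, antioxidant enzymes -0.02, the proteasome 0.02, splicing factors -0.04 and the unfolded protein and amino acid response -0.02. The p53 targets (median -0.23, 10 genes) and the apoptosis and BCL2 family (-0.25, 15 genes) lay as low as the cytosolic chaperones, with wide quartiles. Their medians in H1 were 0.02 and -0.08, or -0.08 and -0.10 without the extreme cells. Core pluripotency genes had a median of 0.00, with ZFP42, a marker of the undifferentiated state, at 187.3 CPM against 291.9 and PODXL, a surface sialomucin, at 226 against 166. Cholesterol synthesis had a median of -0.05.

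**Figure D4:**
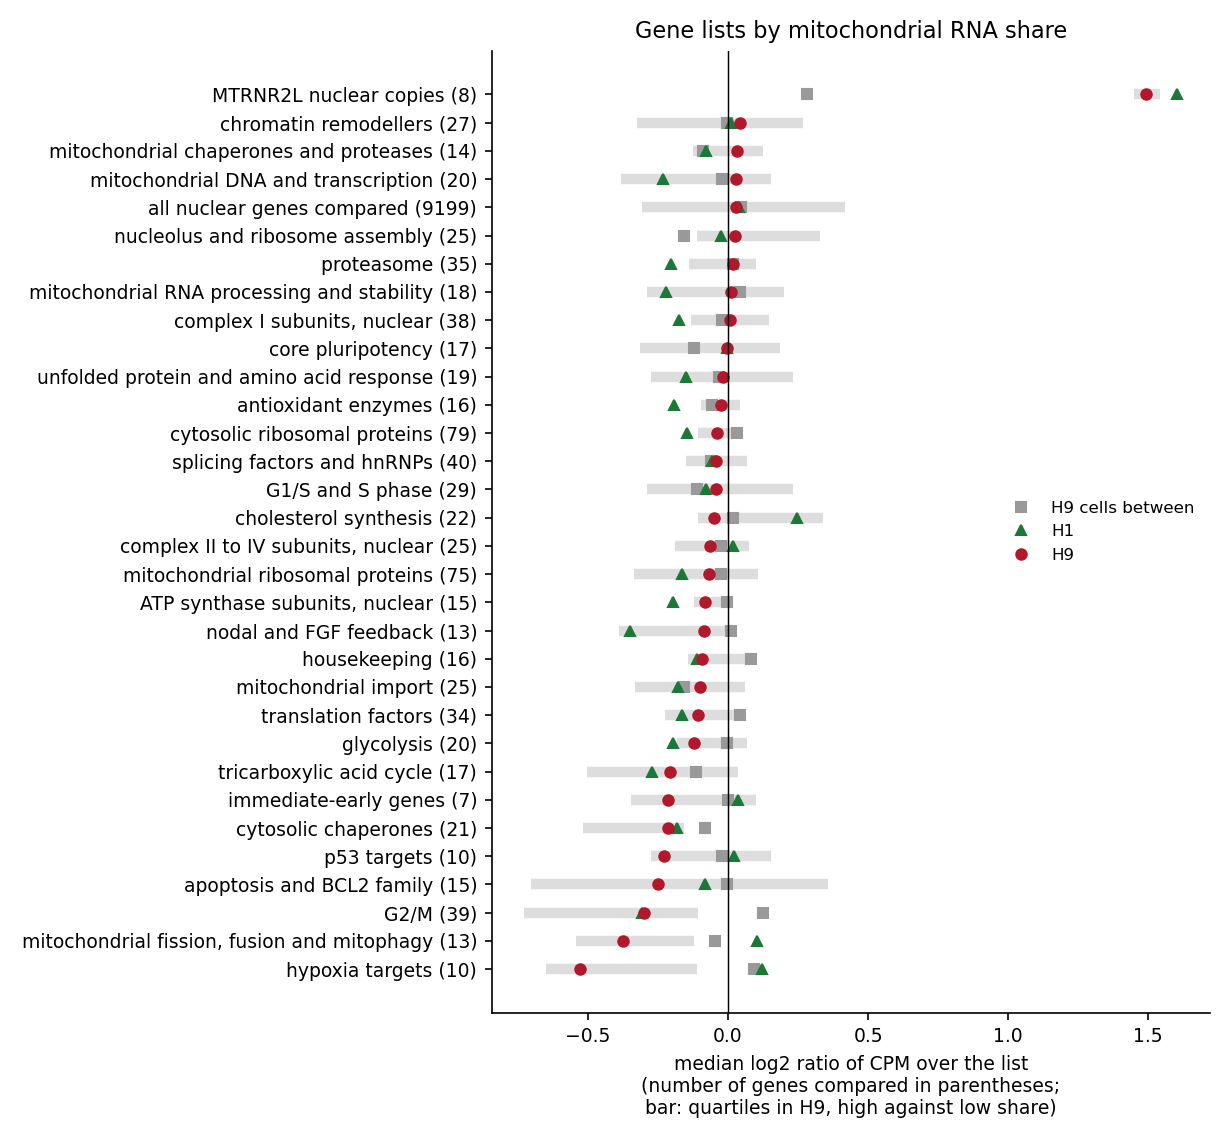
Median log2 ratio of CPM, high against low share (x axis), for each gene list with at least 5 genes compared (y axis, number of genes in parentheses), in H9 (circles, with quartiles of the genes as bars), in the 45 H9 cells between, upper against lower (squares), and in H1 with its extreme cells (triangles). The MTRNR2L copies lie above 1 in H9 and H1, the other lists within 0.53 of 0 in H9, and hypoxia targets lie lowest in H9 but above 0 in the other comparisons.

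Among genes at 50 CPM or more in the higher group, 12 each way were named for the widest gaps that also held in 3 other settings. Apart from MTRNR2L6 and MTRNR2L8, these were read at high level in some cells and at low level in others. In MTRNR2L6 and MTRNR2L8 all 23 high cells lay above the low median. SPATA6, known from the sperm tail connection, stood at 53.1 CPM (95% exact Poisson interval 51.5 to 54.8) in the summed high group and 7.89 (7.32 to 8.50) in the low group, a log2 ratio of 2.75. Such intervals cover counting error only, and amplified reads are not independent molecules. Its cell medians were 6.81 and 2.41 CPM and its highest cells 312 and 57.3, so the sum rests on few cells. In H1 its log2 ratio was -0.69, or -0.95 without the extreme cells.

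FUT9, the fucosyltransferase that makes the Lewis x antigen, ran from 1.18 to 262.03 CPM in high cells (median 10.7) and from 1.02 to 104 in low cells (median 3.66). It was above the low median in 21 of 23 high cells, with a log2 ratio of 2.41, and it was higher in H1 too (1.42, or 1.15 without the extreme cells), but not between the groups (-0.08). ATP11A, a phospholipid flippase, had cell medians of 28.8 and 9.02 CPM and a log2 ratio of 2.00. Its ratio was 0.54 between the groups and 0.36 in H1, or 0.08 without the extreme cells. NFE2L3, a transcription factor of the NRF family, had cell medians of 111 and 57.8 CPM and a log2 ratio of 1.58. For NFE2L3 the ratio was -0.20 between the groups and 0.94 in H1, or 0.25 without the extreme cells.

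The remaining named genes on the high side were LRRTM4, a synaptic adhesion protein (log2 ratio 1.97), USP25, a deubiquitinase (1.85), MCCC1, a mitochondrial enzyme of leucine breakdown (1.81), the zinc finger genes ZNF711 (1.69) and ZNF267 (1.65), BTBD11 (1.68), MTRNR2L6 (1.67) and MTRNR2L8 (1.56). Of the 12 in all, 7 (58.3%) were also higher between the groups and 7 in H1, with or without the extreme cells. That is near the share over all compared genes. It was 54.4% between the groups and 52.3% in H1, or 52.05% without the extreme cells.

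On the low side FBXO38, a substrate receptor of a ubiquitin ligase, ran from 0.00 to 63.3 CPM in high cells (median 8.16) and from 1.71 to 220 in low cells (median 47.6). Only 3 high cells lay above the low median, the log2 ratio was -2.34, and it was -1.11 between the groups and 0.31 in H1, or -0.02 without the extreme cells. NCAPH2, a subunit of condensin II, had cell medians of 3.02 and 37.1 CPM, with log2 ratios of -2.31 in H9, 0.21 between and 0.78 in H1, or 0.35 without the extreme cells. PRKACB, a catalytic subunit of protein kinase A, had cell medians of 7.27 and 83.1 CPM, only 2 high cells above the low median, and a log2 ratio of -1.67. Its log2 ratio was near 0 in the other cells (-0.01 between, 0.04 in H1, 0.03 without the extreme cells). CUL2, the cullin scaffold of the VHL ubiquitin ligase, had cell medians of 39.9 and 97.6 CPM (-1.55). For CUL2 the ratio was 0.34 between the groups and -0.02 in H1, or -0.10 without the extreme cells.

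The other named genes on the low side were MTMR6, a lipid phosphatase (-1.81), ZNF468 (-1.78), NFYA, a subunit of the CCAAT-binding factor (-1.73), B3GNT5, a glycosyltransferase (-1.69), ZNF134 (-1.68), ZNF776 (-1.63), INTS4, of the Integrator complex (-1.63), and GTF2H2D (-1.50), a copy of a TFIIH subunit gene whose counts are uncertain because near-identical copies share its reads. Of the 12, 10 (83.3%) were also lower between the groups, against 45.6% of all compared genes. In H1 it was 3 (25%), or 6 (50%) without the extreme H1 cells, against 47.7% and 47.95% of all.

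A different set of genes followed the share evenly over all 91 cells. Beside the MTRNR2L genes, 232 genes with a matched transcript and 21 without one had a rank correlation of CPM with share above 0.4. Their median level was 17.7 CPM, 240 of them (94.9%) were read in every one of the 91 cells, and their median log2 ratio was 0.88. The 7680 genes with a rank correlation from -0.2 to 0.2 had a median level of 45.02 CPM. Of those, 3511 (45.7%) were read in all 91 cells. The genes above 0.4 were chosen with H9 cells, so their H9 values are a description. In H1, which the choice did not use, 244 of them (96.4%) were higher in cells of high share, also without the extreme cells, with a median log2 ratio of 0.88, or 0.73 without the extreme cells, against 0.04 and 0.03 over all compared genes.

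Examples of these genes follow. How many of them are known from differentiated tissues rather than from stem cells was not counted. CPT1A, which admits long-chain fatty acids to mitochondria, ran from 17.6 to 180 CPM in high cells (median 40.02) and from 5.98 to 48.2 in low cells (median 16.6), and every high cell lay above the low median. ZNF793, a zinc finger gene, ran from 50.4 to 192 CPM in high cells (median 114) and from 25.0 to 108 in low cells (median 48.7). TNFRSF9, a costimulatory receptor of T cells, had cell medians of 40.1 and 26.6 CPM, and IL6R, the interleukin-6 receptor, 36.8 and 18.6. CCL5, a chemokine of T cells, had cell medians of 48.1 and 22.7 CPM, CYP1A2, a liver cytochrome P450, 32.7 and 19.5, and ADIPOQ, the fat cell hormone adiponectin, 13.28 and 7.603. CCL5, CYP1A2 and ADIPOQ were named after their values were seen. Where reads match several transcripts, RSEM, the counting program in the submitters' processing notes, divides them among genes by estimate, so such counts are uncertain.

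The genes that most closely followed the share downwards were fewer. Rank correlations reached -0.40 for PRKACB and MRPS27, -0.37 for CDC20 and for CCT4, a subunit of the cytosolic chaperonin, and -0.34 for HSPA8. CCT4 had cell medians of 629 CPM in high cells and 832 in low cells, and its log2 ratio of -0.38 was -0.19 between the groups and -0.20 in H1, or -0.06 without the extreme cells. In all, 290 genes had a rank correlation below -0.2, against 968 from 0.2 to 0.4 and the genes above 0.4 already described, with a median log2 ratio of -0.62 in H9, -0.19 between the groups and -0.15 in H1, or -0.12 without the extreme cells.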

How the data were processed

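Each deposited table gives an expected count for every gene and library. Per the submitters' processing notes, the authors used CASAVA 1.8.2, Bowtie 0.12.8 and RSEM 1.2.3 with hg19; the annotation is not given in the sources used here. The 4 single-cell tables (366 columns, each matched to a title) were used, with 19084 nuclear genes, 13 mitochondrially encoded genes and 92 spike-ins.

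Expected counts were summed over the cells of a group, without rounding except for intervals, and divided by the nuclear total to give CPM. Genes at 10 CPM in either group were compared, 2-fold being the size reported. A group with 0 counts took a floor of 3 counts. The groups and gene lists were chosen with earlier results of these data known. Named are the 12 genes of largest log2 ratio each way at 50 CPM or more that were read in 50% of cells and at least 1.5-fold apart under 3 other settings, up to 4 members of each list, and all mitochondrially encoded genes. Where more members qualified than the text could describe, examples are given.

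Transcripts came from GENCODE (build GRCh38), which gave one for 92.3% of table genes; as the build differs from the authors' one, no genome coordinates are given. The ratio was tested on simulated data with known fold changes. The simulated cells of a group differed only by depth and counting error. False 2-fold differences from genes read at high level in few cells were thus not tested. Alternatives changed the cells taken, the library depth, the weight of cells, the scaling and the minimum level. Tools were scipy 1.17.1, pandas 2.3.3, numpy 2.4.6 and matplotlib 3.10.9 under Python 3.11.15, and edgeR 4.0.16 (R 4.3.3), the latter for TMM factors alone.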

Additional observations from a re-analysis of the deposited data

Results flagged for a closer look

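Genes named for H9 that were at least 2-fold apart in the opposite direction in H1 were singled out because the same contrast pointed 2 ways in the 2 lines. The difference between lines was not tested. LRRTM4 had a log2 ratio of 1.97 in H9 and -1.20 in H1, where it stood at 25.3 CPM in cells of high share and 57.8 in cells of low share. USP25 had 1.85 and -1.37. NFYA had -1.73 and 1.07, with H1 levels of 70.97 and 33.76 CPM. BTBD11 had 1.68 and -2.00, but only -0.60 in H1 without its 4 cells of extreme share, whereas LRRTM4, USP25 and NFYA kept -1.26, -1.20 and 1.11.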

How the results depend on the processing

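The counts of 670 genes 2-fold higher and 498 lower moved by over 1.5 times under 3 settings. They were 1091 and 756 with 15 against 15 cells, 446 and 312 with 30 against 30, and 1701 and 1303 with a minimum of 1 CPM. TMM factors gave 563 and 588, and size factors 565 and 582, so the share of higher genes among those 2-fold apart went from 57.4% to 48.9% and 49.3%. Without the cell below 1% they were 652 and 497, and without cell 95 and the 3 cells that resemble it (cells 88, 94 and 96, with r of 0.83 to 0.86 to cell 95 against at most 0.73 for any other pair, and 2 of the 4 in the high group), chosen after seeing the data, 713 and 485. Of 34 list medians, 16 changed sign in at least 1 setting, each from a main value of at most 0.25 in size, and 7 did so under TMM or size factors. Those of MTRNR2L, hypoxia targets, fission and mitophagy, G2/M, cytosolic chaperones and the citrate cycle kept theirs in every setting run. Of 155 single genes, 6 changed sign in 1 setting each, POU5F1 among them. Thinning every cell to 1416252 nuclear counts brought the G2/M median from -0.30 to -0.18, the hypoxia median from -0.53 to -0.33 and that of fission, fusion and mitophagy from -0.37 to -0.22. With 23 cells a group, each group 1 sample and no label naming a separate culture, how far the differences would recur in another culture cannot be judged. No paired analysis was possible because the result comes from no test.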
